A study of Mus musculus with 11 samples.

Results

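Alveolar macrophages (AMs) of WT mice were set against the WT macrophages (macs) of 4 other tissues. The AMs were all cell barcodes of the WT lung library, 7703 of the 51712 cells of the series, and the other 4 WT libraries with the same alleles held 4645 Kupffer cells (KCs) from the liver, 3097 microglia from the brain, 4989 colonic macs (CMs) and 4474 splenic macs (SMs). The study used droplet single-cell RNA sequencing (10x Genomics), which counts the 3′ ends of transcripts by unique molecular identifiers (UMIs), to ask what deletion of the transcription factor ZEB2 does to macs of different tissues. Here only the macs in which Zeb2 was intact were compared, to describe what sets AMs apart, what they lack and how they vary from cell to cell. All 5 libraries came from Zeb2fl/fl mice, which carry loxP-flanked Zeb2 alleles, young adults of both sexes on a C57Bl/6 background. They were littermates without a CRE transgene from different crosses. The paper names Itgax-cre for the lung, Clec4f-cre for the liver and Fcgr1-cre for brain, colon and spleen. A further WT KC library of 3869 cells, from Nr1h3fl/fl mice, whose Nr1h3 alleles carry loxP sites, was used as a second liver library. The number of animals behind each library is not given in the sources used here. Lung cells were sorted as CD45+ CD64+ F4/80+ CD11c+ SiglecF+, KCs as Clec4F+ CD64+ F4/80+, microglia as CD45int CD64+ F4/80+, and CMs and SMs as CD64+ F4/80+ cells without Ly6C, Ly6G and SiglecF. AMs and KCs were sequenced on one kind of instrument (NextSeq500) and microglia, CMs and SMs on another (HiSeq), and lung, brain and spleen were digested with one enzyme (Liberase TM), liver with another (Collagenase A) and colon by a separate protocol. The version of the mapping software (Cell Ranger) split the libraries in the same way as the instrument. No other library shared both the instrument and the enzyme of the AMs. The part of these factors and of the crosses was not tested.

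AMs live on the air side of the lung epithelium, in a film of lipid-rich surfactant that type 2 epithelial cells secrete and that AMs take up and degrade. They arise from fetal monocytes, depend on the cytokine GM-CSF and on TGF-β, which induce the nuclear receptor PPARγ, and renew themselves by local division. Macs of most other tissues depend more on CSF1R signalling and on the transcription factor c-MAF, produce the complement component C1q, and in the liver and spleen recycle the iron of red blood cells.

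Each library held 1 sample of its tissue, so a difference between tissues has no replicate check, no test was made, and the intervals given cover counting error only. After cells with outlying totals were removed (710 lung cells, 9.22%), 6993 AMs with 27510014 UMIs were left, at a median of 3586 UMIs and 1639 genes per cell. The kept cells of the other 4 libraries numbered 2830 to 4334, with 8072069 UMIs in SMs to 42885340 in CMs, after clusters of other cell types had been left out (0% of microglia, 5.37% of CMs, 7.81% of KCs and 22.4% of SMs). No cluster of the lung library met the rule for another cell type. The kept SMs still summed to 620 CPM of B cell markers and 2194 CPM of erythroid markers, against 6.80 and 10.0 CPM in AMs, and a kept SM cluster of 220 cells was led in part by Cd72 and Fcer2a, genes known from B cells. Without it, 481 genes were above and 185 below all others by the rules given further on, against 483 and 185 with it. UMIs were summed over the kept cells of a library and scaled to the total of the library (CPM), and a log2 ratio compares CPM plus 1. AMs shared 33 to 48 barcodes with each of these libraries, 0.428% to 0.623% of the AM barcodes.

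The label of the cells was checked against 5 AM markers. Chil3, a secreted chitinase-like protein, was at 5750.3 CPM in AMs, 0.0420 in KCs, 0 in microglia, 2.40 in CMs and 0.124 in SMs. Car4, a membrane-bound carbonic anhydrase, was at 525 CPM in AMs, 0 in KCs, 0 in microglia, 0.933 in CMs and 0 in SMs. Plet1, a surface protein anchored in the membrane by lipid, was at 863 CPM in AMs, 0 in KCs, 0.0811 in microglia, 0.350 in CMs and 0 in SMs. Each of these 3 was therefore almost restricted to the lung library. Ear2, a ribonuclease of the eosinophil-associated family, was at 2466 CPM in AMs, 300.2 in KCs, 0 in microglia, 12.1 in CMs and 177 in SMs. Fabp1, a fatty acid binding protein, was at 939 CPM in AMs, 43.7 in KCs, 0 in microglia, 0.0700 in CMs and 0.867 in SMs. Both were highest in AMs, with UMIs of both also in the KC library and of Ear2 in the SM library. Fabp1 was among the leading genes of 42 hepatocyte-like cells left out of the KC library, whose kept cells also had 20.1 CPM of the hepatocyte gene Alb, and the part of hepatocyte RNA in their Fabp1 level was not tested. Ear2 and its relative Ear1 (1100.2 CPM in AMs, 0 to 14.1 CPM elsewhere) are near-identical in sequence, as are Chil3 and Chil4, and reads could be split between such copies. When every cell was thinned to 1500 UMIs, 99.6% of AMs held a UMI of Chil3 (exact binomial 95% interval 99.4% to 99.7%), 91.9% of Ear2, 69.6% of Plet1, 58.7% of Fabp1 and 45.4% of Car4. At that depth a Chil3 UMI was found in 0.0251% of KCs, 0.323% of CMs and 0 of 2830 microglia and 0 of 2372 SMs, which, with 3 cells taken as the limit for a count of 0, allows shares of up to 0.106% and 0.126%. The thinning left out 29 AMs and 842 SMs with fewer UMIs, and the median depth before thinning was 2202.5 UMIs in SMs, against 9232.5 in CMs. Of the 6993 AMs, 9 had no Chil3 UMI, and the middle of the others was wide: the median AM held 18 Chil3 UMIs, the 5th percentile 6 and the 95th 57.

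As examples, the promoters are shown of the markers Chil3, Plet1 and Ear2 and of Olr1, which was among the genes furthest above. Each is the 250 bases before the start of transcription in RefSeq (GRCm38.p6), written 5′ to 3′ on the gene's strand. Chil3 lies on the minus strand with this stretch at chr3:106167565-106167814, Plet1 on the plus strand at chr9:50494275-50494524, Olr1, which encodes the scavenger receptor LOX-1, on the minus strand at chr6:129507166-129507415, and Ear2 on the plus strand at chr14:44102404-44102653. None of these stretches overlaps an annotated exon. Capitals mark matches, on either strand, to GAGGAAGT (a site of the myeloid factor PU.1), AGGTCA (the half-site of nuclear receptors such as PPARγ) or TTGCNNAA (a site of C/EBP factors).
Chil3: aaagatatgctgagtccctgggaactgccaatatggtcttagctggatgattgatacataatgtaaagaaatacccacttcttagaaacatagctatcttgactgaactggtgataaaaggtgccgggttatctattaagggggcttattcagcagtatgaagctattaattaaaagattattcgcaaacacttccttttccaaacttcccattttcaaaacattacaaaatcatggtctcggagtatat
Plet1: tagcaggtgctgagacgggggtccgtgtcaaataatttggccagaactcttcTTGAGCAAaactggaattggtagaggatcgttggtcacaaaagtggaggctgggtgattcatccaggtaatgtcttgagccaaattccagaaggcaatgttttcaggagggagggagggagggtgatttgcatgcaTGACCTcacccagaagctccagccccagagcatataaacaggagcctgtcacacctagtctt
Olr1: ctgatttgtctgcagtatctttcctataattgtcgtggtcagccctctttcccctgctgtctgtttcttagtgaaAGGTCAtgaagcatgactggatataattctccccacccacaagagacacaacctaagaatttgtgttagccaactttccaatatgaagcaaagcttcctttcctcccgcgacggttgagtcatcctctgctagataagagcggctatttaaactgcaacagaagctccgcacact
Ear2: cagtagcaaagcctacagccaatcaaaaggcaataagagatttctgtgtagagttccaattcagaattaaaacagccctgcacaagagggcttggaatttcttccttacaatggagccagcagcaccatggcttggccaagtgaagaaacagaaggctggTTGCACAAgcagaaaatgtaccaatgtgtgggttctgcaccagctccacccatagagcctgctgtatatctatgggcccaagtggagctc
Plet1 held a half-site whose far end lay 62 bases before the start and a C/EBP match at 198 bases, Olr1 a half-site at 175 bases, and Ear2 a C/EBP match at 90 bases. The Chil3 stretch held none of the 3 motifs, nor did those of Car4, Krt79, Cidec, Cpne5 and Kcnn3, which are not shown. Fabp1, also not shown, held 2 half-sites and 1 C/EBP match. Of the 8 matched genes among the 10 furthest above, 2 held the half-site and 1 the C/EBP letters. Of the 6 matched among the 10 furthest below, 3 held the half-site and 1 the PU.1 letters. Over all 27025 promoters of the table, 2.44% held the PU.1 letters, 13.8% the half-site and 9.55% the C/EBP letters. Among the 376 matched genes that were above all other macs (defined next), the shares were 4.52%, 12.2% and 11.4%, beside 2.69%, 10.2% and 7.81% of the 4352 matched genes of at least 20 CPM in AMs. A match is a description of these letters only.

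Which genes were higher in AMs than in all 4 other macs was asked first. The genes furthest above were Chil3, Plet1, Krt79 and Cidec, with Car4, Olr1 and others described with them. A gene counted as above all others when AMs held 20 CPM or more of it and the log2 ratio to the highest other library was 1 or more. There were 483 such genes of 5562 (8.68%). This ratio reached 2 for 214 of them, 3 for 118 and 5 for 45. Of the 483, 6 belonged to gene classes left out of the rankings, among them Sftpc, Scgb1a1, Epcam and S100a8, markers of other cell types. Together the 483 genes gave 11.4% of all UMIs of AMs and 1.16% to 1.94% of the UMIs of the other libraries. The nearest other mac was the SM for 174 of them, the CM for 145, the microglia for 85 and the KC for 79. By the same rule 579 genes were above all others in microglia, 423 in SMs, 141 in KCs and 123 in CMs, and AMs were second to microglia. The count is set by the library that lies closest: without the spleen library it was 861, and without the brain, colon or liver library 570, 561 and 552.

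Leaving Chil3, Plet1 and Car4 aside, 7 further genes led this list. Krt79, a keratin, was at 574 CPM in AMs and had 0 UMIs in each of the other 4 libraries, and was at least 1543-fold higher in AMs when 3 UMIs per library were taken as the limit. Cidec, which coats and enlarges lipid droplets, was at 339 CPM in AMs, 0 in KCs, 0 in microglia, 0 in CMs and 0.124 in SMs. Olr1, which binds oxidised lipoprotein, was at 484 CPM in AMs, 0.0840 in KCs, 0.811 in microglia, 1.07 in CMs and 0.124 in SMs. These 3 genes and Plet1 each had a UMI in 69.4% to 91.8% of AMs, and no other library exceeded 1.07 CPM. Wfdc21, which encodes a small protein with a whey acidic protein domain, was at 835 CPM in AMs, 3.19 in KCs, 0 in microglia, 0.0233 in CMs and 1.24 in SMs. Atp6v0d2, a subunit of the proton pump that acidifies lysosomes, was at 464 CPM in AMs, 0.420 in KCs, 0 in microglia, 4.24 in CMs and 0.124 in SMs. The calcium-binding protein gene Cpne5 (204 CPM in AMs, 0 to 0.0811 CPM elsewhere) and the potassium channel gene Kcnn3 (133 CPM in AMs, 0 to 0.117 CPM elsewhere) completed the group. Log2 ratios to the next library ran from 6.47 for Atp6v0d2 to 10.72 for Chil3. The values of these genes and of the genes furthest below are plotted by library.

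**Figure D1:**
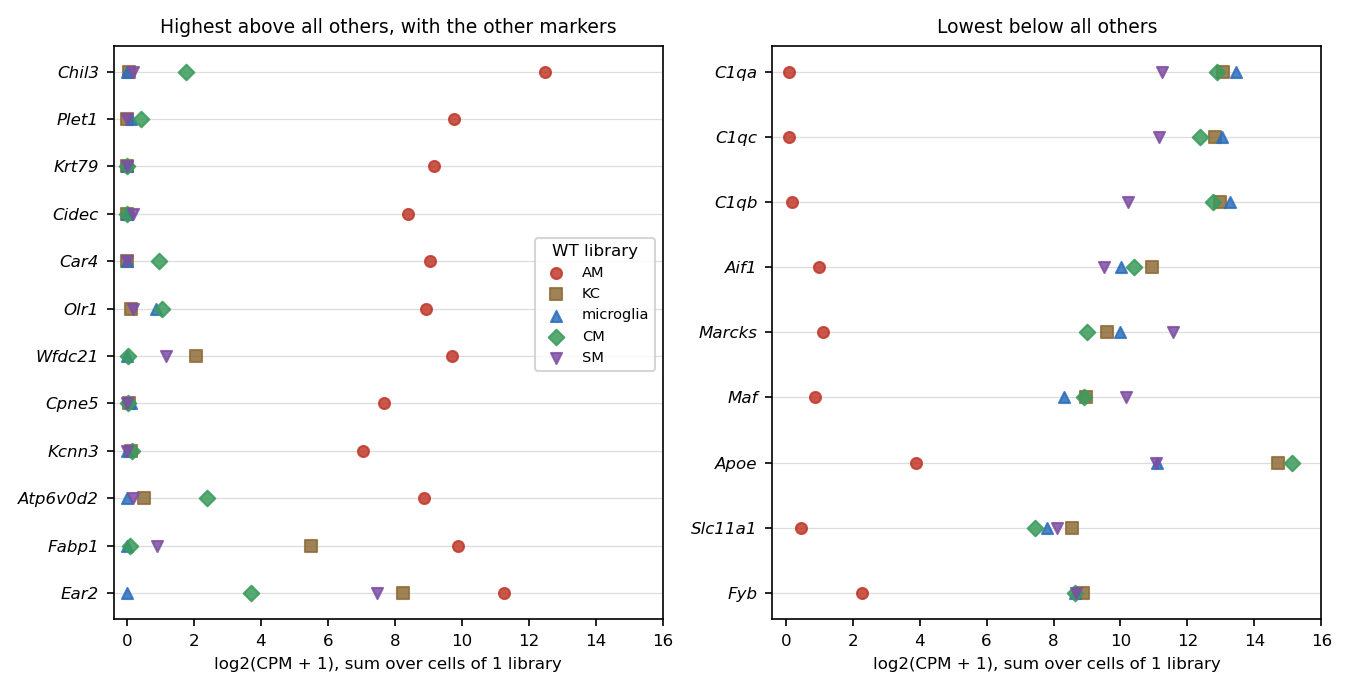
Levels of the named genes in each WT library, as log2(CPM + 1) on the horizontal axis, with 1 point for each library and no error bar since each tissue had 1 library. The left panel has the AM markers and the 10 genes furthest above all others, where the AM point lies to the right of the other 4, and the right panel genes furthest below, where AMs lie at 13.9 CPM (Apoe) or less.

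Among the pathway lists, genes of fatty acid uptake, binding and storage had the highest share above all others. The lists were written with earlier results of these data known. This one holds the marker Fabp1 and, from the genes furthest above, Cidec and Olr1, so its count is not independent evidence of its direction. Of the 21 members high enough in AMs to be considered, 12 were above all 4 other libraries and none of the 5 considered downwards was below, beside 8.68% and 5.11% of all genes. The summed level of the list was 10034 CPM in AMs, 2388 in CMs, 2055 in KCs, 1897 in SMs and 533 in microglia. These sums include the galectin gene Lgals3, at 1987 CPM in AMs, 1330 in CMs, 736 in KCs, 256 in SMs and 8.43 in microglia. The order of the other macs depends on it. The median log2 ratio of the list's members to the median of the other libraries was 2.70, beside 0.09 for all 10826 genes of at least 5 CPM in any library. Lipoprotein lipase, Lpl, which frees fatty acids from triglyceride, was at 2764 CPM in AMs, 402 in KCs, 67.0 in microglia, 40.5 in CMs and 335 in SMs. Among fatty acid binding proteins, Fabp5 was at 731 CPM in AMs and 8.19 to 139 CPM elsewhere, and Fabp4 at 397 CPM and 0 to 67.4 CPM. Thus 3 of these carriers were above all others, with Fabp1 the furthest at a log2 ratio of 4.39. Plin2, which coats lipid droplets, was at 905 CPM in AMs and 53.1 to 269 CPM elsewhere, and both enzymes of the last step of triglyceride synthesis were higher, Dgat1 at 84.2 against 9.58 to 21.4 CPM and Dgat2 at 35.9 against 0.0840 to 11.6 CPM. The breakdown of stored fat was represented by the monoglyceride lipase Mgll (187 CPM, 88.4 in microglia and 2.01 to 6.07 in the other macs), by Abhd5, which activates the first lipase (137 against 11.8 to 14.3 CPM), and by G0s2, which inhibits it (44.5 against 0.588 to 2.92 CPM). Cd36, a fatty acid and lipoprotein receptor, was not above all others: AMs held 273 CPM and CMs 249 CPM.

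Fatty acid oxidation and cholesterol handling differed less. Of 17 oxidation genes considered, 3 were above all others and none of 12 was below, beside 8.68% and 5.11% of all genes. Among the 3 were Cpt1a, which carries fatty acids into mitochondria (167 CPM in AMs, 7.30 to 72.1 CPM elsewhere), and the electron carrier Etfa (168 against 43.2 to 66.3 CPM). The summed level of the list was 1920 CPM in AMs and 773 to 1080 CPM elsewhere. For cholesterol, the exporter Abcg1 was at 1484 CPM in AMs, 118 in KCs, 57.2 in microglia, 11.6 in CMs and 295 in SMs, and the 25-hydroxylase Ch25h at 69.9 CPM against 0.0420 to 8.79 CPM. These were the only 2 of 18 cholesterol genes above all others, a share near the 8.68% of all genes. Apoe, which carries cholesterol out of macs, went the other way, at 13.9 CPM in AMs, 26882 in KCs, 2192 in microglia, 35944 in CMs and 2135 in SMs. The summed level of cholesterol genes was 2986 CPM in AMs and 3657 to 38347 CPM elsewhere, most of which was Apoe in KCs, microglia and CMs. In glycolysis, 1 of 11 genes was above (Pfkp, a phosphofructokinase, 99.9 against 0.405 to 17.7 CPM) and 1 of 10 below (Hk3, a hexokinase, with a log2 ratio of -1.65 to the lowest other library). Both glycolysis counts were near the shares of all genes.

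The list of secreted proteins and enzymes held the largest number of genes above all others, 15 of 28 considered. Of 11 considered downwards, 2 were below, beside 8.68% above and 5.11% below among all genes. The 15 include the keratins Krt79 and Krt19 and the transporter gene Slc7a2, which are neither secreted proteins nor enzymes. The lead over the 12 genes of the fatty acid list rests on these members. Spp1, which encodes osteopontin, was at 567 CPM in AMs and 0 to 27.8 CPM elsewhere. Ctsk, a cysteine protease, was at 249 against 0.0811 to 2.05 CPM, F7, coagulation factor VII, at 239 against 0 to 1.76 CPM, and Mmp19, a metalloproteinase, at 127 against 1.86 to 19.0 CPM. The list was chosen with AMs in mind, and its count is not independent evidence of its direction. Its 2 members below all others were Ctsb, a lysosomal protease, at 535 CPM in AMs, 5279 in KCs, 2150.4 in microglia, 3693 in CMs and 7059 in SMs, and Timp2, an inhibitor of metalloproteinases (43.7 against 245 to 417 CPM). The proteases thus differed among themselves, and Ctsd, another lysosomal protease, was at 2545 CPM in AMs, within the range of 758 to 11185 CPM of the other macs. Krt19, a keratin like Krt79, was at 547 CPM against 0 to 7.88 CPM. Keratins are known from epithelium, and genes of lung epithelium were also present in this library: the surfactant protein gene Sftpc was at 22.8 CPM in AMs and listed at 0 in the other 4 libraries, and Scgb1a1, the secretory protein of club cells, was at 65.1 CPM and 0 to 0.117 CPM. Only these 2 of 11 lung epithelium markers reached 20 CPM, the sum of the list was 105 CPM in AMs and 1.22 to 3.10 CPM elsewhere, and 21.7% of AMs held a UMI of it. Its part in the keratin values was not tested.

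Of 27 surface receptor genes, 9 were above all others, beside 8.68% of all genes. Siglecf (126 CPM in AMs, 1.51 in KCs, 30.6 in microglia, 0.583 in CMs and 0.372 in SMs) and Itgax, which encodes CD11c (289 against 1.72 to 87.4 CPM), encode proteins used to sort the lung cells, and CMs and SMs were sorted without SiglecF. The part of the gates in these values was not tested. Among genes outside the gates, the tetraspanin Cd9 was at 3661 CPM in AMs, 39.4 in KCs, 1407 in microglia, 330.0 in CMs and 20.1 in SMs. Cd44, the hyaluronan receptor, was at 2761 CPM in AMs, 382 in KCs, 1.30 in microglia, 213 in CMs and 1242 in SMs. AMs were thus highest for both, with microglia nearest for Cd9 and SMs for Cd44. The toll-like receptor Tlr2 (565 against 53.1 to 115 CPM), the adhesion molecules Cd2 (195 against 0 to 4.83 CPM) and Cdh1, E-cadherin (42.3 against 0 to 2.35 CPM), and the lectin Clec4e (50.1 against 0.243 to 12.1 CPM) followed. Marco and Mrc1, scavenger and mannose receptors often used to mark AMs, were not above all others. Marco was at 186 CPM in AMs, 349 in KCs, 0 in microglia, 14.6 in CMs and 222 in SMs, and Mrc1 at 857 CPM in AMs, 474 in KCs, 6.32 in microglia, 661 in CMs and 1690.3 in SMs.

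**Figure D2:**
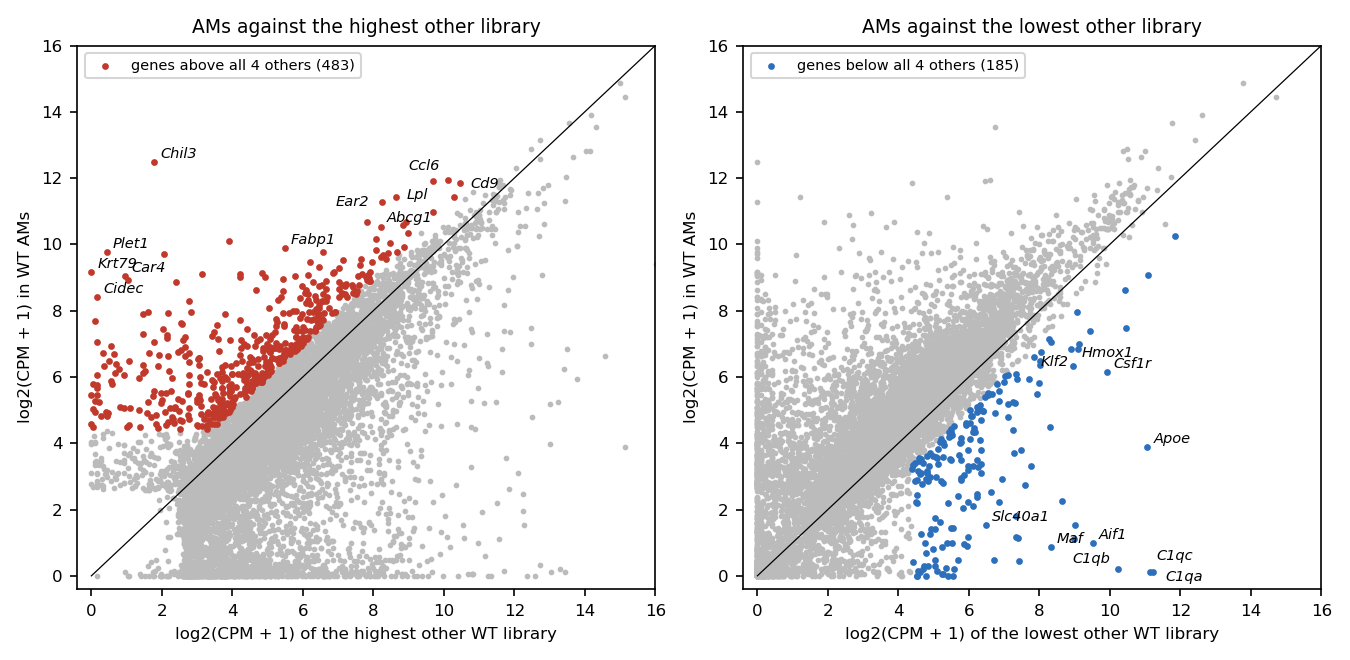
Level of each gene of at least 5 CPM in any library in AMs (vertical axis) against its highest (left) or lowest (right) level in the other 4 WT libraries, both as log2(CPM + 1), with the line of equal levels. The 483 genes above all others are red and the 185 below all others are blue, and Chil3 and the C1q genes lie furthest from the line.

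What AMs lacked was asked with the mirror of this rule. The genes furthest below included the 3 C1q genes, Maf, Apoe and Slc11a1. A gene counted as below all others when it had at least 20 CPM in each of the other 4 libraries and a log2 ratio of at most -1 to the lowest of them. There were 185 such genes of 3617 (5.11%), 102 with a log2 ratio of -2 or lower, 68 of -3 or lower and 22 of -5 or lower. Among the 185 were 3 markers of other cell types, the erythroid gene Hbb-bs and the B cell genes Cd79b and Bank1. Together the 185 gave 0.615% of the UMIs of AMs and 7.73% to 12.5% of those of the other libraries. The count was 279 without the brain library, and 251, 246 and 274 without the colon, liver or spleen library. By the same rule 188 genes were below all others in microglia, 83 in SMs, 61 in KCs and 25 in CMs.

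C1q genes stood furthest apart. C1qa was at 0.0727 CPM in AMs, 8614 in KCs, 11203 in microglia, 7497 in CMs and 2396 in SMs. C1qb was at 0.145 CPM in AMs, 7996 in KCs, 9957 in microglia, 6886 in CMs and 1207 in SMs, and C1qc at 0.0727 CPM in AMs, 7289.5 in KCs, 8379.5 in microglia, 5283 in CMs and 2250.0 in SMs. The 3 genes encode the chains of C1q, the recognition molecule of the classical complement pathway, and they gave 8 UMIs in all 6993 AMs. The 2 UMIs of C1qa put its level in AMs at 0.00880 to 0.263 CPM (exact Poisson 95% interval), 32961-fold under the lowest other library (9125 to 272170). After thinning, 1 of 6964 AMs held a C1qa UMI, against 97.0% of SMs and 99.5% to 100% of CMs, KCs and microglia. All 3 complement genes considered downwards were below all others, beside 5.11% of all genes. The complement list summed to 356 CPM in AMs and 7520 to 30476 CPM elsewhere. What was left of it in AMs was chiefly the C5a receptor C5ar1, at 263 CPM, within the 4.34 to 500.5 CPM of the other macs.

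Maf, which encodes the transcription factor c-MAF, was at 0.836 CPM in AMs, 495 in KCs, 320.0 in microglia, 476 in CMs and 1158 in SMs. It was under 2 CPM in AMs and over 300 CPM in the other 4. Csf1r, the receptor for CSF1 and IL-34, was lower but not absent: 69.2 CPM in AMs, 1694 in KCs, 3202 in microglia, 975 in CMs and 1773 in SMs, with a UMI in 9.19% of thinned AMs and in 77.1% to 98.9% of the other thinned cells. Below all others in the list of growth factor receptors and signalling were Csf1r and the integrins Itgav and Itgb5, which can activate TGF-β. They were 3 of 9 genes considered, and 4 of 15 were above, beside 5.11% and 8.68% of all genes. These 4 were Csf2rb, the signalling chain of the GM-CSF receptor (314 CPM in AMs, 92.8 in KCs, 42.5 in microglia, 99.9 in CMs and 58.8 in SMs), the signal transducer Stat5a (32.2 against 5.62 to 10.2 CPM), and Cish (28.9 against 0.462 to 1.98 CPM) and Socs2 (49.9 against 2.43 to 19.3 CPM), inhibitors that STAT5 is known to induce. The binding chain of that receptor, Csf2ra, was at 109 CPM in AMs and 74.2 to 149 CPM elsewhere, and the TGF-β receptor Tgfbr2 at 241 and 84.0 to 247 CPM. Neither chain set AMs apart.

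Among 26 transcription factors considered upwards, 5 were above all others, beside 8.68% of all genes. Cebpb was at 1285 CPM in AMs, 91.6 in KCs, 28.5 in microglia, 74.0 in CMs and 506 in SMs. Fosl2 (468 against 9.40 to 77.8 CPM), Egr2 (402 against 2.01 to 99.1 CPM), Runx1 (416 against 21.4 to 172 CPM) and Stat5a were the other 4, of which Runx1 fell just under the limit with trimmed-mean (0.999) or median-of-ratios (0.983) scaling. Pparg, the nuclear receptor known as the main regulator of AM identity, was at 98.2 CPM in AMs, 8.19 in KCs, 0 in microglia, 5.99 in CMs and 108 in SMs. It was thus about as high in SMs as in AMs. Bhlhe41, a repressor known from AMs, was at 172 CPM in AMs, 0.210 in KCs, 111 in microglia, 14.7 in CMs and 9.29 in SMs, a log2 ratio of 0.62 over microglia that missed the limit. Of 18 considered downwards, 4 were below, beside 5.11% of all genes. Among the 4 were Maf, Klf2 (114 against 547 to 3185 CPM) and Etv5 (0.836 against 36.4 to 59.6 CPM). Spi1, which encodes PU.1, was at 464 CPM and inside the 193 to 662 CPM of the other macs.

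Genes of iron handling, interferon response and the common mac programme were lower in part. Over all genes, 5.11% were below all others, to be set beside the counts that follow. Of 10 iron and haem genes considered, 4 were below all others: the exporter ferroportin, Slc40a1 (1.89 CPM in AMs, 2168 in KCs, 129 in microglia, 88.3 in CMs and 4928 in SMs), the phagosomal transporter Slc11a1 (0.364 against 172 to 375 CPM), Hfe (12.1 against 155 to 311 CPM) and the haem-degrading enzyme Hmox1 (114 CPM in AMs, 1088 in KCs, 765 in microglia, 479 in CMs and 11645 in SMs). The ferritin chains that store iron did not follow: Fth1 was at 13092 CPM in AMs and 3452 to 11948 CPM elsewhere, and Ftl1 at 15362 and 6264 to 18494 CPM. In the interferon list 5 of the 7 genes considered, Isg15, Bst2, Cxcl10, Rtp4 and Ly6e, were below all others, and the list summed to 302 CPM in AMs against 1567 in microglia, 1869 in CMs, 2864 in SMs and 7667 in KCs. Ly6e, the highest of them, was at 80.0 CPM in AMs, 2441 in KCs, 1162 in microglia, 497 in CMs and 1238 in SMs. Of 17 core mac genes considered, 5 were below, among them Csf1r, Fcgr1, which encodes CD64 (24.8 CPM in AMs, 332 in KCs, 577 in microglia, 179.6 in CMs and 79.9 in SMs), Adgre1, which encodes F4/80 (106 CPM in AMs, 779.9 in KCs, 264 in microglia, 603 in CMs and 741 in SMs), and Aif1 (0.981 against 729 to 1986 CPM). CD64 and F4/80 were in the sort gate of all 5 libraries. Mertk, Cd68, Lyz2, Tyrobp and Ctss were not below all others, and Lyz2, lysozyme, was at 11847 CPM in AMs, 9572 in KCs, 332 in microglia, 20212 in CMs and 105 in SMs. The actin regulator Marcks was at 1.16 CPM against 507 to 3013 CPM, and the adaptor Fyb at 3.82 against 396 to 466 CPM.

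**Figure D3:**
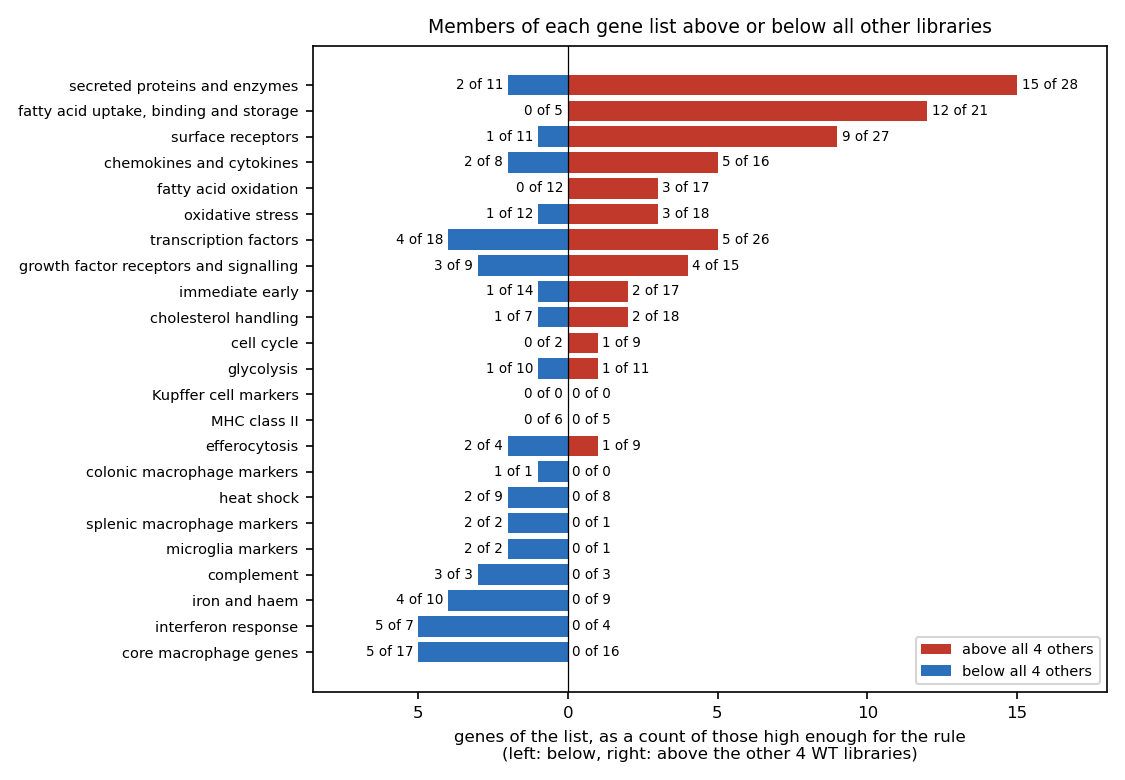
Number of genes of each pathway or mac list that were above (red, right) or below (blue, left) all 4 other WT libraries, with the number high enough to be considered in that direction. The lists were written with earlier results of these data known. Fatty acid uptake, binding and storage had 12 of 21 above and none below, and complement 3 of 3 below, beside 8.68% above and 5.11% below among all genes.

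Markers of the other tissue macs were near 0 in AMs. The 10 KC markers summed to 23.1 CPM in AMs and 19675 in KCs, and Clec4f, Timd4, Cd5l and C6 had 0 UMIs in AMs. Cd5l was at 5286 CPM in KCs and 681 in SMs, at least 48474-fold and 6249-fold over the limit of 3 UMIs in AMs. The 10 microglia markers summed to 80.0 CPM in AMs and 35934 in microglia, with 0 UMIs of Tmem119, Siglech, Sall1 and Fcrls. The 8 CM markers summed to 12.9 CPM in AMs and 8659 in CMs, and the 7 SM markers to 127 CPM in AMs, of which Hmox1 gave 114, and 26202 in SMs. Vcam1, which anchors cells in the splenic red pulp, was at 0.254 CPM in AMs and 6838 in SMs. Ccl24, an eosinophil chemokine, had 0 UMIs in AMs and was at 22.1 to 1008 CPM in the other 4, and Cd163, the haemoglobin receptor, had 0 UMIs and was at 330.4 CPM in KCs, 82.1 in CMs and 391 in SMs.

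MHC class II genes were low in AMs but not below all others, for Cd74 and the class II chains because microglia were low too. Cd74, the invariant chain, was at 98.6 CPM in AMs, 7459 in KCs, 193 in microglia, 24202 in CMs and 2104 in SMs. H2-Aa was at 35.6 CPM in AMs, 3213 in KCs, 28.9 in microglia, 8335 in CMs and 654 in SMs, and H2-Ab1 at 36.8 CPM in AMs, 46.9 in microglia and 538 to 9755 CPM in the other 3. None of the list passed either rule, and it summed to 563 CPM in AMs, 904 in microglia, 4016 in SMs, 17354 in KCs and 52007 in CMs. H2-DMa, which loads peptides, did not share the pattern, at 276 CPM in AMs and 144 to 845 CPM elsewhere. For H2-DMb1, at 86.3 CPM in AMs, SMs were nearest at 118 CPM, against 181 in microglia.

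Chemokine, cytokine and stress genes went in both directions. Among all genes, 8.68% were above and 5.11% below all others, to be set beside the counts that follow. Of 16 chemokine and cytokine genes considered, 5 were above all others: Ccl6 (3873 CPM in AMs, 828 in KCs, 156 in microglia, 508 in CMs and 86.3 in SMs), Il18 (489 CPM in AMs, 116 in KCs, 59.7 in microglia, 34.8 in CMs and 225 in SMs), the receptor antagonist Il1rn (240.4 against 2.03 to 96.8 CPM), Osm (297 against 1.86 to 66.7 CPM) and Il6 (28.4 against 1.14 to 9.65 CPM). Il6 reached a log2 ratio of only 0.48 once clusters 3 and 4, described further on, were left out. Ccl24 and Cxcl10 were below, although with TMM factors Ccl24 in microglia came under the 20 CPM that the rule asks of each other library. The neutrophil chemokine Cxcl2 was at 1326 CPM in AMs and 1139.7 in CMs. Metallothioneins were higher, Mt1 at 2019 CPM in AMs, 171 in KCs, 350.4 in microglia, 832 in CMs and 179 in SMs and Mt2 at 362 CPM in AMs, 2.81 in KCs, 11.6 in microglia, 69.5 in CMs and 3.34 in SMs, as was the glutathione transferase Gstm1 (237 against 5.19 to 87.1 CPM), so 3 of 18 oxidative stress genes were above and 1 of 12, Hmox1, below. Under median-of-ratios scaling Mt1 fell just short of the limit, at a log2 ratio of 0.986. The heat shock genes Hspa1a (4.51 against 73.8 to 4859 CPM) and Hspa1b (3.09 against 56.0 to 350.4 CPM), whose copies are near-identical, were below all others. With the second liver library, which held 9.01 CPM of Hspa1b and 23.3 CPM of Hspa1a, Hspa1b no longer met the rule, since that level was under 20 CPM. The immediate early genes Fosb (854 against 24.3 to 339 CPM) and Egr2 were above, whereas Fos at 1514 CPM lay within the 185 to 4542 CPM of the others and Jun at 126 CPM under their 185 to 5645 CPM by less than the limit. Genes of both lists are known to respond to tissue digestion, whose part was not tested. Hspa1a was at 4859 CPM in microglia and 73.8 in SMs. Brain and spleen were digested with the same enzyme as lung, but brain cells also passed a Percoll gradient, so their preparation differed. Among genes of cell uptake (efferocytosis), Anxa1 was above (340.2 against 0 to 129 CPM), Itgb5 (56.7 against 126 CPM in CMs, the lowest of the others) and Cd300a (20.2 against 151 to 344 CPM) were below, and the receptors Axl (536 CPM) and Mertk (265 CPM) lay within the range of the other macs.

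How far AMs lay from each other mac was also counted pair by pair, counting genes whose higher library held 20 CPM or more and whose log2 ratio was 1 or more in either direction. AMs were higher than KCs for 1445 of 6337 genes (22.8%) and lower for 845 (13.3%). Against microglia they were higher for 1768 of 6827 (25.9%) and lower for 1488 (21.8%), against CMs higher for 1706 of 6246 (27.3%) and lower for 749 (12%), and against SMs higher for 1121 of 6634 (16.9%) and lower for 1201 (18.1%). Between the WT KC libraries of Zeb2fl/fl and of Nr1h3fl/fl mice, sequenced from the same tissue, the second was higher for 29 of 5552 genes (0.522%) and lower for 48 (0.865%). Pearson's r of log2 CPM was taken over genes of at least 20 CPM in both libraries of a pair, which are not independent replicates. Genes near 0 in either library were thus left out, among them Chil3 and C1qa in each pair with AMs. It was 0.788 with KCs (4254 genes), 0.685 with microglia (4310), 0.790 with CMs (4148) and 0.783 with SMs (4748). Between the KC libraries r was 0.974 (4798 genes). How many genes fell on each side varied with scaling. Over the genes considered in each pair, the median log2 ratio of AMs was 0.32 against KCs, 0.09 against microglia, 0.45 against CMs and 0.02 against SMs. With TMM factors, the genes higher and lower than in CMs were 1228 and 1023, so the share that was higher went from 69.5% to 54.6%, and with median-of-ratios factors it was 53.7%. Against SMs the direction turned, from 48.3% higher to 58.3% with TMM factors (1373 higher and 984 lower) and 56.5% with median-of-ratios factors. The share higher than in KCs went from 63.1% to 54.4% and 53.4%, and that against microglia from 54.3% to 59.3% and 57.1%. At the same depth of 1500 UMIs the median AM held 882 genes, against 755 in CMs, 796 in KCs, 821 in microglia and 856 in SMs, and the 10 most abundant genes took a smaller share of UMIs in AMs than the 14.6% to 18.7% of the others.

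Cell-to-cell variation was measured by the extra-Poisson CV, the spread of a gene between cells relative to its mean after counting error is taken off, so that 0 means no spread beyond counting and 1 a spread as large as the mean. Over the 2861 genes of at least 50 CPM in AMs the median was 0.337, and 85 genes (2.97%) reached 1. The median was 0.269 in microglia, 0.330 in KCs, 0.331 in CMs and 0.416 in SMs, and those of AMs, KCs and CMs were nearly equal. The shares of genes reaching 1 were 3.16% in KCs, 3.38% in SMs, 4.32% in microglia and 7.45% in CMs. Of the 2861 genes in AMs, the 348 that were above all other macs had a median of 0.394. Plet1 was the most even of the 5 markers, at 0.304, followed by Chil3 at 0.470, Ear2 at 0.697, Car4 at 0.930 and Fabp1 at 1.08. Cpt1a was at 0.124, Etfa at 0.174, Axl at 0.245 and Lpl at 0.373. Of the 3 most abundant genes, Tmsb4x, which binds actin, was under the median at 0.220, and the nuclear RNA Malat1 at 0.489 and Ftl1 at 0.463 were above the 75th percentile of 0.439. Summed over a list, fatty acid oxidation genes had a CV of 0.130 and fatty acid uptake, binding and storage genes 0.266, whereas MHC class II genes had 2.09 and cell cycle genes 2.68.

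The 10 most varying genes were Cd74 (6.51), the chemokine Ccl4 (3.64), the tubulin-binding Stmn1 (3.42), Hmox1 (3.42), the growth factor Areg (3.19), the tetraspanin Cd63 (3.06), Mt2 (2.94), Wfdc17 (2.30), the chromatin protein Hmgb2 (2.17) and Rgs1, a regulator of G proteins (2.15). The 5% of cells with the most UMIs of Cd74 held 83.0% of its UMIs, and for Hmox1 this share was 45.4%. Cd74 UMIs were found in 788 AMs, with up to 104 in 1 cell. Stmn1 and Hmgb2 went with the dividing cells, and without the clusters of dividing cells their values were 1.78 and 0.522. The lung epithelium gene Scgb1a1, with a value of 3.71, was left out of the ranking.

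**Figure D4:**
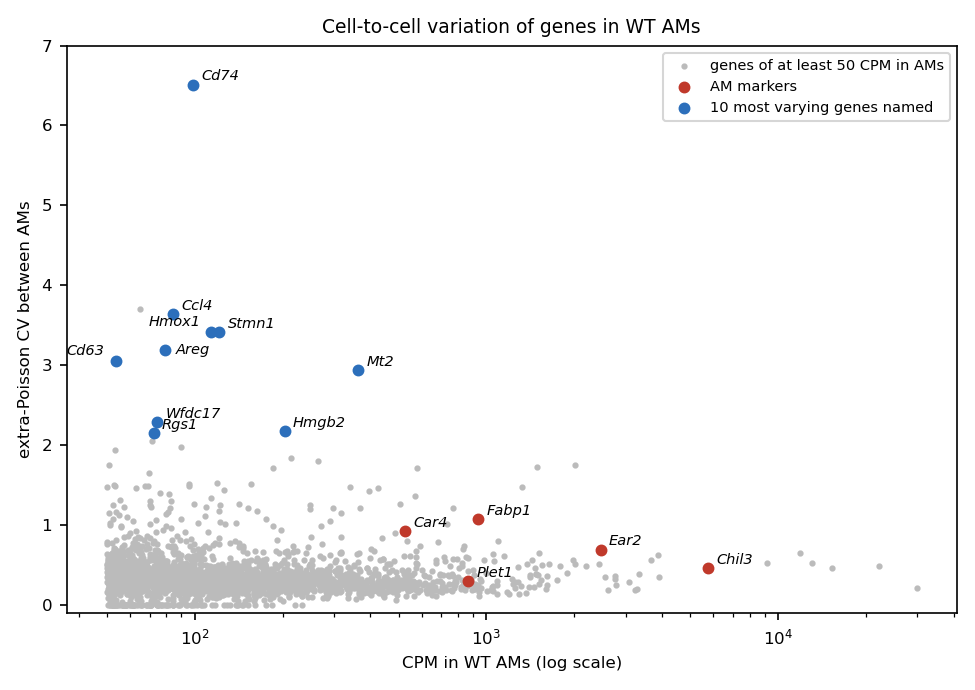
Extra-Poisson CV between AMs (vertical axis) against the level in AMs in CPM (horizontal axis, log scale) for genes of at least 50 CPM. The 5 AM markers (red) lie between 0.304 and 1.08, and the 10 most varying genes named (blue) between 2.15 and 6.51.

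When the AMs were clustered by themselves they fell into 13 clusters, which are described by their leading genes and have no test, since the same genes formed them. The 483 genes above all other macs together gave 9.60% to 11.9% of the UMIs in every cluster. Chil3 was at 4672 to 7347 CPM in clusters of at least 100 cells, and at up to 12491 CPM, in cluster 13, over all clusters. Single genes ranged more widely: in cluster 13, the smallest with 30 cells, Lpl was at 629 CPM, Abcg1 at 279 and Itgax at 29.9, and in cluster 12 Pparg was at 43.7. In clusters of at least 100 cells, Car4 ran from 204 to 793 CPM, Ear2 from 1113 to 3927, Fabp1 from 386 to 1345 and Plet1 from 617 to 956. The 2 largest, cluster 1 (2503 cells) and cluster 2 (1441 cells), differed in depth, with medians of 2920 and 4774 UMIs. Cluster 1 was led by small differences in genes such as Dgat1 (114 CPM against 73.1 in the other AMs) and Abca1 (76.3 against 51.8), and cluster 2 by Gm42418 (3023 against 929), Mgst3 (323 against 134) and Ear1 (1774 against 850.2).

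Of the other clusters, cluster 3 (711 cells) was led by inflammatory genes. Its level of Tnf was 1209 CPM against 159.6 in the other AMs, of Cxcl2 4951 against 926, of Il6 154 against 14.5, and of Cxcl1 307 against 21.1. Without clusters 3 and 4 the genes above all others numbered 474, of which 469 were among the 483. Cluster 4 (666 cells) was led by Ccl4 (158 against 75.4 CPM), the nuclear receptors Nr4a2 (131 against 64.3) and Nr4a3 (273 against 138), and Prdm1 (233 against 127). Cluster 5 (547 cells) was led by genes of sterol synthesis: Idi1 was at 179 CPM against 36.5 in the other AMs and Hmgcs1 at 199 against 63.4. Cluster 8 (215 cells) was led by Atf5 (90.0 against 18.5), Mthfd2 (97.0 against 21.0) and Gpnmb (371 against 89.1), and cluster 11 (102 cells) by Clec1a (219.9 against 9.73) and Lsmem1 (199 against 4.90). Cluster 12 (82 cells) was led by Hmox1 (2083 against 94.2 CPM) with Mt1 (14258 against 1895), Srxn1 (193 against 22.5) and Gclm (299 against 58.9), a set known from the response to oxidants and metals. Cluster 13 (30 cells) had a median of 0.0660% mitochondrial UMIs, against 3.08% to 3.76% in the other clusters.

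Dividing AMs formed clusters 9 and 10, with 111 and 107 cells, and cluster 6 (253 cells) was led by genes of DNA replication. In cluster 10, Top2a was at 1323 CPM against 9.54 in the other AMs and was found in 99.1% of cells, and in cluster 9, Ccnb2 was at 609 against 8.79. In cluster 6, Mcm6 was at 206 against 15.9 and Hells at 143 against 7.88. The dividing cells were AMs by the same markers, with Chil3 at 5672 and 4981 CPM, against 5750.3 in all AMs. All 5 markers were lower in both clusters than in all AMs. Ear2 was at 1113 and 1147 CPM against 2466, Plet1 at 643 and 617 against 863, Car4 at 204 and 384 against 525, and Fabp1 at 386 and 683 against 939. Similar levels were found outside the dividing cells: in cluster 12, Ear2 was at 1161 CPM, Plet1 at 441, Car4 at 197 and Fabp1 at 400.5. The cell cycle list summed to 569 CPM in AMs and 145 to 421 CPM in the other macs, and 1 of its 9 members considered, Ccnb2 (20.5 CPM against 0.324 to 8.77), was above all others, beside 8.68% of all genes. It missed the limit with trimmed-mean (log2 ratio 0.89) or median-of-ratios (0.87) scaling, and the 20 CPM floor without the 5% of cells with the most UMIs (17.7 CPM) or with the mean of CPM over cells (16.4 CPM).

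Cluster 7 (225 cells) held most UMIs of Cd74 and of the class II chains. Its level of H2-Aa was 650.4 CPM against 13.6 in the other AMs, with a UMI in 78.2% of its cells, and it held 60.4% of Cd74 UMIs, but 24.8% of the UMIs of the whole class II list, since H2-DMa was spread over the AMs. Across all AMs, 108 cells (1.54%) had at least 10 UMIs of Cd74, H2-Aa, H2-Ab1 and H2-Eb1, and they held 53.8% of the UMIs of these genes. Of the 108, 93 were in cluster 7, and their Chil3 level was 7178 CPM against 5721 in the other AMs. They were deeper, with a median of 5206.5 UMIs against 3570.0, and a limit in UMIs favours deep cells and doublets, for which no caller was run. Plac8, known from monocytes, was at 74.9 CPM in them against 2.15 in the other AMs, but its 42 UMIs came from 6 of the 108 cells, 25 of them from 1 cell. Over the whole of cluster 7, Plac8 was at 89.5 CPM and the chemokine receptor gene Ccr2 at 30.5, with Ccr2 at 8.91 in the 108 cells and 3.19 in the other AMs. Cluster 7 was mixed, since its top genes by fold were Ccl5 (337 against 1.58 CPM, found in 2.22% of its cells), Gzma and Ccl17, and it held all of the few AM-library cells with 10 or more UMIs of T or NK (5 cells), B (7), endothelium (5), monocyte (5) and dendritic (1) markers. Those T or NK, B and endothelium cells each had a median of 1 Chil3 UMI, the monocyte ones 7 and the dendritic one 4. The 23 cells with 10 or more UMIs of lung epithelium markers, 2 of them in cluster 7, had a median of 22. Without cluster 7 the CV of Cd74 was 3.88, the genes above all others numbered 485 and those below 191.

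**Figure D5:**
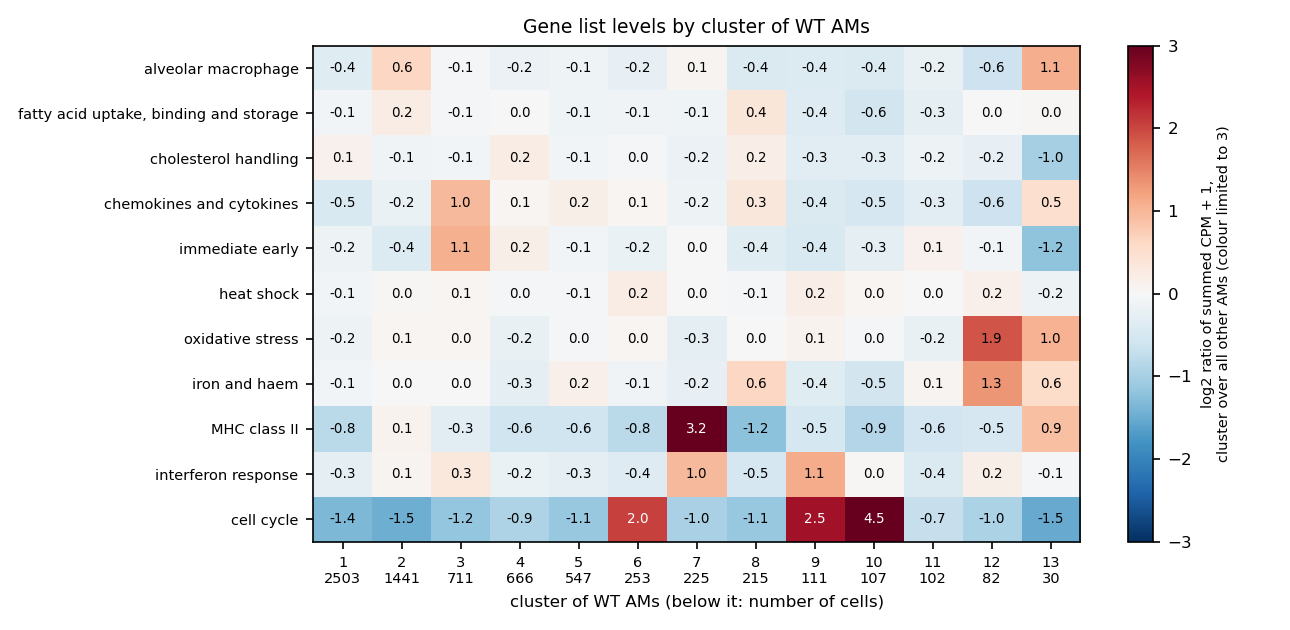
Summed level of gene lists in each cluster of AMs, as the log2 ratio of summed CPM plus 1 to all other AMs, with the number of cells under each cluster. MHC class II stands out in cluster 7, oxidative stress in cluster 12 and cell cycle in clusters 6, 9 and 10, while the AM markers and fatty acid genes vary less in the clusters of at least 100 cells.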

How the data were processed

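Single cells from 5 WT libraries were compared. The authors mapped the reads to mm10 with STAR in Cell Ranger, and the deposited values are raw counts of UMIs for 27998 genes in each cell barcode, with no filter beyond the calling of cells stated. The files hold as many barcodes as the labels give cells. Members and gene lists were chosen with earlier results of these data known.

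Cells whose log UMIs or log detected genes lay over 3 median absolute deviations away from their own library's median, or whose mitochondrial share lay that far above it, were dropped. The study used the same 3 metrics, and the paper describes each median as taken over all cells without naming the libraries included. The study also removed proliferating cells and possible doublets. Here proliferating cells were kept and no doublet caller was used, and leaving out the 5% of cells with the most UMIs was tried instead. Cells of each library were clustered in scanpy 1.11.5 with leidenalg 0.10.2 (2000 variable genes, 30 principal components, 15 neighbours, resolution 0.8). Clusters that carried another type's markers and fewer mac markers were left out.

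UMIs were summed per library and scaled to CPM by the library total, 1 CPM was added before log2, and the limits were 20 CPM and a log2 ratio of 1. Each tissue had 1 library, so no test was made. TMM factors came from edgeR 4.0.16 (R 4.3.3) and served as an alternative scaling only. Poisson intervals of named genes of 20 CPM or more in AMs had a half-width of 2.03% of the value at the median and 8.34% at most. UMIs count molecules once, but cells of 1 library share their preparation. The rules were tried on simulated Poisson counts from a shared profile with planted changes, and the extra-Poisson CV on simulated cells of known spread. The simulated libraries held no differences in preparation. They therefore cannot show how often such differences pass the rules. Coordinates and exons are from GENCODE M21, promoters from RefSeq, and 8 of the 10 genes furthest above matched the promoter table.

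The genes named were the 5 markers, the 10 furthest above (at least 50 CPM and found in at least 20% of AMs), the 10 furthest below (at least 50 CPM in each other library), the 10 with the largest CV, the 3 most abundant and up to 6 per list. Mitochondrial, ribosomal protein, sex-linked, immunoglobulin and haemoglobin genes and markers of other cell types were left out of the rankings. List members that passed a limit, genes leading clusters, and Cd36, Marco, Mrc1, Pparg, Bhlhe41, Spi1 and Csf2ra were named after their values were seen. Some genes that these rules or lists hold are not reported here.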

Additional observations from a re-analysis of the deposited data

How the results depend on the processing

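Among the genes named by the rules, no log2 ratio that passed the limit changed sign under any alternative run on it. In 13 cases the ratio no longer passed it, among them Ccnb2 and Mt1 under other scalings and Ehhadh with the second liver library. Of the values that had not passed the limit, 269 moved by 1 or more on the log2 scale. The other 4170 values had either not passed it and moved by less than 1, or still passed it with the same sign. For those that still passed, the size of the move was not counted. With all barcodes, Epcam and S100a8, markers of other cell types that passed the limit in the kept cells, had log2 ratios of -0.20 and -2.58, with the cell filter alone 0.75 and -2.57, and S100a8 was at 0.93 without the 5% of cells with the most UMIs and 0.97 with the mean of CPM. The counts depended mostly on the limits. With a floor of 5 CPM, 344 genes were below all others, and the genes lower in AMs were 1320 against KCs, 2263 against microglia and 1268 against CMs. With a floor of 50 CPM, 106 genes were below all others, and the higher and lower genes were 931 and 534 against KCs, 1155 and 913 against microglia and 1051 and 458 against CMs, with 767 lower than in SMs. With a log2 limit of 2, 214 genes were above and 102 below all others, and the higher and lower genes were 588 and 495 against KCs, 800 and 705 against microglia, 527 and 442 against CMs and 457 and 607 against SMs. Without the spleen library 861 genes were above, against 570, 561 and 552 without the brain, colon or liver library. Without the brain library 279 were below. Of the 483 genes above, 439 were shared with TMM factors and 436 with median-of-ratios factors, and 460 when all barcodes were used. Without SM cluster 7, an alternative chosen after seeing the data, 479 were shared, as were 183 of the 185 below. Shares of AMs with a UMI followed depth. At 1000 UMIs and without thinning they were 98.6% and 99.9% for Chil3, 33.5% and 69.7% for Car4, 83.7% and 99.0% for Ear2, 47.8% and 79.6% for Fabp1, 56.2% and 91.8% for Plet1, 6.02% and 22.7% for Csf1r and 4.65% and 11.3% for Cd74. Clustering at resolutions of 0.4 and 1.2 gave 9 and 16 clusters, with an adjusted Rand index to the 13 of 0.508 and 0.438. At 0.4, clusters 1, 4, 5 and 8 merged. With all barcodes the CV of Cd74 was 12.7. No paired analysis was possible because each tissue had 1 library and no test was made. What depth limits is the lowest levels: 3 UMIs in AMs are 0.109 CPM.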

Other observations

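Genes outside the lists that were above all other macs are given here as examples chosen after their values were seen. Ffar4, a receptor for long-chain fatty acids, was at 103 CPM in AMs and 0 to 0.560 CPM elsewhere. The neuropeptide gene Gal was at 122 against 0 to 0.462 CPM, the serotonin transporter gene Slc6a4 at 49.4 against 0 to 0.124 CPM and the serotonin receptor gene Htr2c at 42.7 CPM against 0 UMIs in each other library. Flt1, a VEGF receptor, was at 192 against 0.373 to 4.91 CPM, and Ly75, the endocytic receptor DEC-205, at 156 against 0 to 1.73 CPM. The peroxisomal thiolase Acaa1b was at 245 against 0.280 to 3.53 CPM, and Mcemp1, which encodes a small membrane protein, at 550.2 against 0 to 17.6 CPM. The transcription factor Runx2 followed at 112 against 0.168 to 4.78 CPM. Each of these 9 genes passed the limit against all 4 other libraries.

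Examples of genes below all other macs were chosen in the same way. The cyclooxygenase Ptgs1 was at 8.87 CPM in AMs and 215 to 601 CPM elsewhere, and Hpgd, which inactivates prostaglandins, at 5.67 against 192 to 1305 CPM. Hpgds, a prostaglandin D synthase, was at 6.43 against 54.2 to 613 CPM. The chemerin receptor Cmklr1 and the transporter Abcc3 had 0 UMIs in AMs and were at 45.6 to 98.9 and 41.4 to 237 CPM in the other macs. Prkcb, a protein kinase C, was at 0.145 against 47.2 to 145 CPM, and the cyclin Ccnd1 at 1.24 against 61.6 to 102 CPM, although AMs held dividing cells. The lysosomal protease Lgmn was at 175 against 1409 to 5657 CPM.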
